A study of Mus musculus with 72 samples.

Results

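The 36 genes described here encode enzymes that make, interconvert and remodel the phospholipids of cell membranes. They were chosen by symbol from a list of enzymes of this metabolism, with earlier results of these data known. The shares of members called below, set beside those of all genes, are therefore no independent test of the group. All 36 symbols were found in each of the 7 count tables, among 25239 gene symbols in the table of E18.5 testes and 35976 in each of the other 6 tables. Levels were compared between the IVF and Natural animals of each tissue, mainly in the livers of F2 sons and daughters, and the levels in testis and ovary are given beside them.

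The F1 males were made by in vitro fertilization (IVF) of eggs of superovulated CF-1 females with sperm of SJL/B6 males that carried 1 copy of a GFP transgene, followed by culture to the blastocyst and transfer into pseudopregnant CF-1 recipients, or by natural mating of CF-1 females with such males. F2 animals came from 12-week IVF or Natural F1 males mated with wild-type CF-1 females, so that an F2 animal of the IVF group had a father conceived by IVF and was itself conceived by mating. RNA-Seq covered F1 testes at E18.5 (4 Natural and 6 IVF), 12 weeks (5 and 5) and 39 weeks (4 and 6), and F2 testes (5 and 7), ovaries (4 and 5), male livers (5 and 5) and female livers (5 and 6), all F2 tissues at 12 weeks, in 72 libraries. Natural F1 animals had no superovulation, culture or embryo transfer, so the steps of IVF cannot be told apart, and the labels tie no F2 animal to a sire or litter, so the p-values measure the spread between these animals, some of which may share a father.

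Phosphatidylcholine and phosphatidylethanolamine, the most abundant phospholipids of mammalian membranes, are built in the Kennedy pathway. A kinase phosphorylates choline or ethanolamine, a cytidylyl transferase activates the product with CTP, and a transferase joins it to diacylglycerol. The liver has an additional route, in which PEMT methylates phosphatidylethanolamine to phosphatidylcholine with S-adenosylmethionine. This route supplies phosphatidylcholine for bile and for lipoproteins. Phosphatidic acid is the shared precursor. Phosphatidate phosphatases turn it into diacylglycerol, and CDP-diacylglycerol synthases turn it into the precursor of phosphatidylinositol and of cardiolipin, the lipid of mitochondrial membranes. Phospholipases and lysophospholipid acyltransferases then exchange the fatty acids of finished phospholipids.

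Library depth differed widely, from 543745 to 90441392 total counts over the 72 libraries. The 2 shallowest liver libraries were IVF 3 and IVF 2 of the sons, with 543745 and 2137355 counts, followed by Natural 1 and Natural 3 of the daughters with 3947645 and 4248128. The sex labels held in every liver, since Xist had 6 to 18 counts in the 10 male and 1144 to 20975 in the 11 female libraries, and Ddx3y had 21 to 2748 counts in the males and 0 in the females. The 8 hepatocyte markers, Alb and Ttr among them, were above 0 in every liver group. Their summed level was 81126 to 105515 CPM (counts scaled to a common library size) in Natural and 91951 to 147668 in IVF sons, and 164858 to 249731 in Natural and 113342 to 133689 in IVF daughters. The 6 stellate cell markers summed to 115 to 166 against 163 to 246 CPM in sons and to 240.2 to 302 against 117 to 205 CPM in daughters. The 6 listed of 8 blood cell markers summed to 155 to 359.9 against 345 to 876 CPM in sons and to 446 to 751 against 145 to 367 CPM in daughters. Hba-a2, a globin gene, was at 0 in all Natural daughters. The 5 cholangiocyte markers summed to 29.6 to 73.3 against 40.4 to 84.8 CPM in sons and to 39.4 to 57.3 against 16.1 to 41.3 CPM in daughters. The medians of the hepatocyte, stellate, blood cell and cholangiocyte sums were higher in IVF than Natural sons and lower in IVF than Natural daughters. The 6 Kupffer cell and macrophage markers summed to 119 to 209 (median 173) against 121 to 252 CPM (median 164) in sons and to 119 to 270.5 (median 129.7) against 131 to 279 CPM (median 236) in daughters, and so went the other way. The medians of the 5 endothelial markers were 107 and 114 CPM in sons and 118 and 121 CPM in daughters. The part of these sums in the results below was not tested. In these bulk samples fewer cells of a type and less RNA per cell cannot be told apart.

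In the livers of F2 sons the phospholipid genes were mostly lower in the IVF group. Of the 29 members tested, 20 were lower and 9 higher, and 16 were differentially expressed genes (DEGs) by edgeR's quasi-likelihood test, which here means a p under 0.05 after adjustment over all genes tested together with a fold change above 1.5. These were 12 lower genes, led by Agpat1, Ptdss2, Lpin3 and Pisd, and 4 higher genes, Lpin2, Agpat5, Crls1 and Chpt1. The median log2 fold change (IVF against Natural) of the members was -0.48, against -0.01 for all 11973 genes tested. Members were DEGs in 55.2%, against 31.1% of all genes tested, of which 13.9% were higher and 17.2% lower, and without the fold limit the same 16 members passed, against 34.4% of all genes. The IVF and Natural libraries did not overlap for 11 members (1 above and 10 below), 37.9%, against 27.0% of all genes. Chkb, Cds1, Agpat4, Lpcat2, Lpcat4, Mboat1 and Mboat2 were too low in the sons' livers to be tested.

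In the livers of F2 daughters the same genes were mostly higher in the IVF group. Of the 32 members tested, 23 were higher and 9 lower, and 18 were DEGs, of which 14 were higher and 4 lower. Agpat1, Lpin3, Etnk2 and Pla2g15 led the higher genes, and Chpt1, Agpat5, Pld1 and Crls1 were the lower ones. The median log2 fold change was 0.43, against -0.01 for all 12525 genes tested. Members were DEGs in 56.2%, against 39.4% of all genes, of which 21.6% were higher and 17.8% lower. Without the fold limit 21 members passed, against 49.0% of all genes. The libraries of the groups did not overlap for 16 members (11 above and 5 below), 50.0%, against 29.4% of all genes. Cds1, Lpcat4, Mboat1 and Mboat2 could not be tested.

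The members called in both sexes moved in opposite directions. In all, 14 members were DEGs in both livers, and each of the 14 had opposite signs in sons and daughters. Of the 29 members tested in both livers 24 had opposite signs, which is 82.8%, against 82.2% of the 11825 genes tested in both. Of the 3430 genes that passed the test in both livers, 3417 had opposite signs. Opposite signs were thus nearly as frequent over all genes as among the phospholipid genes.

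**Figure D1:**
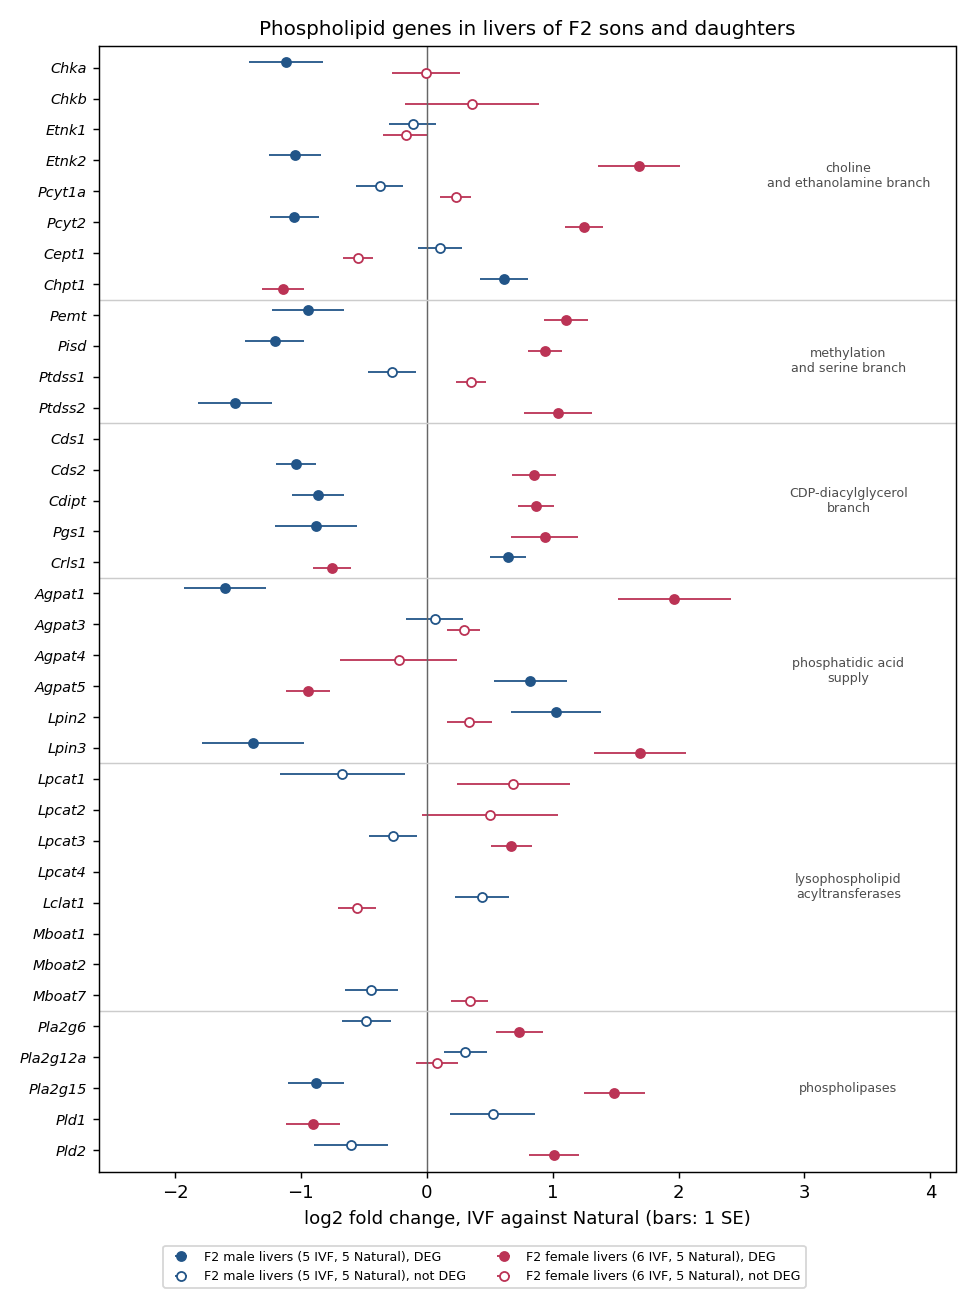
Log2 fold change (IVF against Natural, x axis, bars 1 SE) of each phospholipid gene (y axis, grouped by role) in livers of F2 sons (blue, 5 IVF and 5 Natural) and daughters (red, 6 IVF and 5 Natural). Filled points are DEGs, and rows without a point could not be tested in that liver. The 14 genes that were DEGs in both livers lie on opposite sides of 0 in the 2 sexes.

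The direction of a member went with the base composition of its transcript. The longest transcripts of the 12 members that fell in sons held 51.6% to 59.0% G and C, and those of the 4 that rose held 37.9% to 49.2%. In daughters the 14 that rose held 51.6% to 59.0% and the 4 that fell 37.9% to 47.2%, so that the ranges did not overlap in either sex. The ranges did overlap in the coding sequences alone, where Crls1, which rose in sons, held 55.4% and Cds2, which fell, 49.9%. 6 genes from the ends and the middle of the range are shown, each as the 120 bases at the centre of its coding sequence, 5′ to 3′, with G and C in capitals. They were taken from the GENCODE transcripts of GRCm38, the build named in the submitters' processing notes. Agpat1 (chr17:34604195-34613449, plus strand, coding bases 368 to 487) and Pcyt2 (chr11:120610062-120617947, minus strand, coding bases 547 to 666) lie at the upper end of the range and fell in sons and rose in daughters.
Agpat1: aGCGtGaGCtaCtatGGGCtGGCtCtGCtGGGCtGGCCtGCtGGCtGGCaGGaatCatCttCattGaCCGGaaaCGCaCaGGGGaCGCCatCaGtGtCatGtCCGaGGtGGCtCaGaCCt
Pcyt2: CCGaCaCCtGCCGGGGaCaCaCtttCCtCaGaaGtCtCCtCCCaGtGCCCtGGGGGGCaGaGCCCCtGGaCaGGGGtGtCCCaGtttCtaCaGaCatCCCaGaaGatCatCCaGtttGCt
Ptdss2 (chr7:141131267-141156158, plus strand, coding bases 650 to 769) and Cds2 (chr2:132253338-132312050, plus strand, coding bases 607 to 726) moved the same way with a whole transcript in the middle of the range, at 52.2% and 51.6%.
Ptdss2: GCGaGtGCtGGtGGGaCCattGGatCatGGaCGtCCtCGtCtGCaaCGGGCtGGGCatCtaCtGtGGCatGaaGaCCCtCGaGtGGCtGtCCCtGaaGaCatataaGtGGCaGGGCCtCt
Cds2: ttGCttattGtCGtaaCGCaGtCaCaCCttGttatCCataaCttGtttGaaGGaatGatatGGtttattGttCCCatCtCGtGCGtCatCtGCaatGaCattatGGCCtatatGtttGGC
Agpat5 (chr8:18846279-18884413, plus strand, coding bases 488 to 607) and Chpt1 (chr10:88469513-88503970, minus strand, coding bases 550 to 669) have transcripts of 43.0% and 37.9%, and rose in sons and fell in daughters.
Agpat5: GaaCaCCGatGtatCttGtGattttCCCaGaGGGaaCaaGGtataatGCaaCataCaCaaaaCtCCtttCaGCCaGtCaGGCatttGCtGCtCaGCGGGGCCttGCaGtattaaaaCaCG
Chpt1: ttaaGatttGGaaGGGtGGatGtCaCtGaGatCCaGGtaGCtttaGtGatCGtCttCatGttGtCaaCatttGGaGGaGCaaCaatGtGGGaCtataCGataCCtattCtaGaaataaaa
The stretches of Agpat1 and Pcyt2 held 60.0% G and C each, that of Ptdss2 58.3%, that of Agpat5 45.8%, that of Cds2 40.0% and that of Chpt1 39.2%. The stretch of Cds2 was thus poorer in G and C than its whole transcript and than the stretch of Agpat5, so the stretches do not sort by direction.

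The choline and ethanolamine branch held 4 DEGs among 7 members tested in sons (1 higher and 3 lower) and 3 among 8 in daughters (2 higher and 1 lower). Pcyt2 encodes the cytidylyl transferase of the ethanolamine arm and had the highest level per kb of all members in liver. Its level in the sons was 339, 352, 362, 363 and 306 CPM in the Natural libraries and 192, 93.3, 154, 193 and 193 CPM in the IVF libraries. In daughters it was 126, 188, 114, 141 and 130.1 CPM in the Natural libraries and ranged from 279 to 388 CPM, with a median of 324, in the 6 IVF libraries. The groups did not overlap in either sex. The log2 fold change of Pcyt2 was -1.05 ± 0.19 (SE, adjusted p = 0.000785) in sons and 1.25 ± 0.15 (adjusted p = 2.02e-05) in daughters. Natural sons and IVF daughters were thus at like levels of Pcyt2, and IVF sons were at levels like those of Natural daughters, as values side by side from 2 separate tables.

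Etnk2, an ethanolamine kinase of the liver, had 147, 105, 104, 133 and 174 CPM in Natural sons and 72.4, 57.2, 43.4, 51.8 and 88.4 CPM in IVF sons, without overlap. Natural daughters had 40.2, 79.7, 28.8, 33.1 and 58.6 CPM, and IVF daughters had 81.3 to 251 CPM with a median of 144, again without overlap. The log2 fold changes were -1.05 ± 0.21 (adjusted p = 0.00129) and 1.69 ± 0.33 (adjusted p = 0.00102). The other ethanolamine kinase, Etnk1, had log2 fold changes of -0.11 ± 0.19 and -0.17 ± 0.18, and passed in neither liver.

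Of the first enzymes of the choline arm, Chka was a DEG in sons and neither Chka nor Pcyt1a passed in daughters. Chka, a choline kinase, had 22.4, 39.0, 32.6, 14.9 and 16.3 CPM in Natural sons and 10.2, 12.4, 24.1, 10.8 and 10.1 CPM in IVF sons. The IVF sons were lower except IVF 3, the shallowest library, which lay within the Natural range, and the log2 fold change was -1.12 ± 0.29 (adjusted p = 0.00838). In daughters Chka had 17.1, 8.93, 18.1, 13.6 and 14.5 CPM in Natural and 7.45 to 24.6 CPM (median 12.9) in IVF libraries, with a log2 fold change of -0.01 ± 0.27 (adjusted p = 0.981). Pcyt1a, the cytidylyl transferase of the choline arm and its rate-limiting step, had 73.5, 79.8, 74.0, 83.6 and 79.0 CPM in Natural sons. In the IVF sons Pcyt1a was at 75.8, 42.3, 43.4, 79.0 and 51.1 CPM, so that 3 of the 5 lay below every Natural library. Natural daughters had 49.7, 75.4, 74.0, 68.8 and 66.8 CPM of Pcyt1a and IVF daughters 70.8 to 84.2 CPM (median 80.7), and these ranges overlapped. Its log2 fold changes, -0.37 ± 0.19 in sons and 0.23 ± 0.12 in daughters, did not pass the test (adjusted p = 0.129 and 0.136).

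Chpt1, the cholinephosphotransferase that completes phosphatidylcholine, went the other way. Natural sons had 136, 124, 113, 141 and 135 CPM and IVF sons had 127, 260.0, 253, 171 and 192 CPM, of which IVF 1 lay within the Natural range. Natural daughters had 169.8, 89.8, 155, 111 and 162 CPM, and IVF daughters had 52.6 to 75.4 CPM with a median of 58.3, below every Natural library. Its log2 fold change was 0.61 ± 0.19 (adjusted p = 0.0203) in sons and -1.14 ± 0.17 (adjusted p = 6.99e-05) in daughters. Chpt1 overlaps Sycp3 on the opposite strand over 13668 bases, and whether the counting used the strand is not given in the sources used here. Cept1, which can make both phosphatidylcholine and phosphatidylethanolamine, had a log2 fold change of 0.11 ± 0.17 in sons and fell in daughters by 0.54 on the log2 scale (SE 0.12, adjusted p = 0.0016), under the fold limit.

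**Figure D2:**
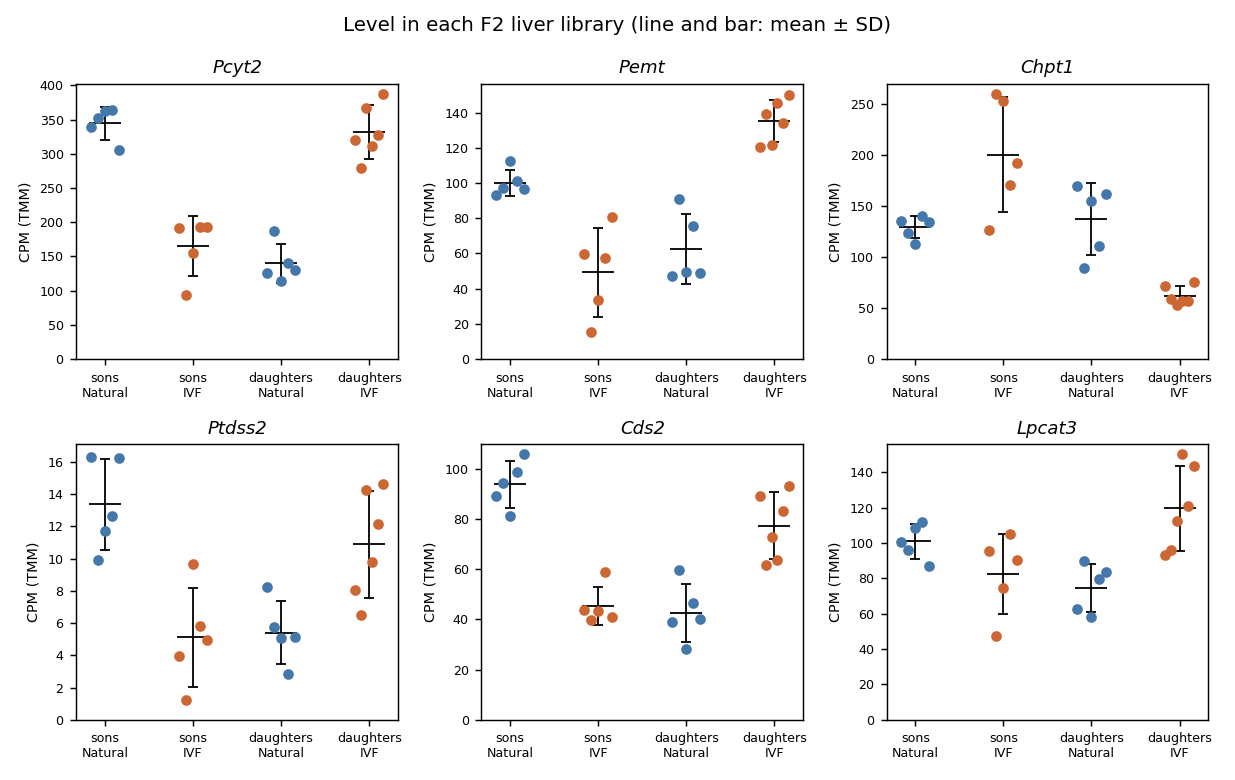
Level (y axis, CPM scaled by TMM within each table) of 6 genes in each F2 liver library, by sex and group (x axis), with blue points for Natural and orange points for IVF animals and lines for the mean and SD. Pcyt2, Pemt, Ptdss2 and Cds2 were lower in IVF than Natural sons and higher in IVF than Natural daughters, and Chpt1 was the reverse.

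In the methylation and serine branch 3 of 4 members were DEGs in each sex, all 3 lower in sons and all 3 higher in daughters. Pemt, the methyltransferase that turns phosphatidylethanolamine into phosphatidylcholine in hepatocytes, had 93.2, 97.3, 112, 101 and 96.8 CPM in Natural sons. The IVF sons had 59.5, 15.5, 33.7, 57.3 and 80.8 CPM, each below every Natural library. In daughters Pemt had 47.2, 91.2, 49.4, 75.7 and 48.9 CPM in Natural and 121 to 149.8 CPM (median 137) in IVF libraries, each above every Natural library. The log2 fold change of Pemt was -0.94 ± 0.29 (adjusted p = 0.0186) in sons and 1.11 ± 0.18 (adjusted p = 0.000112) in daughters.

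Pisd, the mitochondrial decarboxylase that makes phosphatidylethanolamine from phosphatidylserine, was at 37.6, 43.0, 40.4, 41.4 and 43.1 CPM in Natural sons. IVF sons had 21.0, 6.22, 9.64, 20.3 and 22.0 CPM. Natural daughters had 19.5, 23.9, 23.4, 20.5 and 18.8 CPM and IVF daughters 32.2 to 49.0 CPM (median 40.2). The groups were apart in both sexes, with log2 fold changes of -1.21 ± 0.24 (adjusted p = 0.00121) and 0.94 ± 0.14 (adjusted p = 6.31e-05). Pisd shares 48417 bases with a predicted gene on the same strand, Gm20671, so reads of the pair may not be fully separable.

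The phosphatidylserine synthases differed in size of change. Ptdss2, which makes phosphatidylserine from phosphatidylethanolamine, had 16.3, 9.89, 11.7, 12.7 and 16.2 CPM in Natural sons and 3.94, 1.24, 9.64, 5.81 and 4.93 CPM in IVF sons, with IVF 3 just below the lowest Natural library. Natural daughters had 8.23, 5.79, 5.08, 2.84 and 5.14 CPM and IVF daughters 6.49 to 14.6 CPM (median 10.95), so the ranges overlapped through Natural 1. Its log2 fold changes were -1.52 ± 0.29 (adjusted p = 0.00106) and 1.04 ± 0.27 (adjusted p = 0.00433). Ptdss1, which starts from phosphatidylcholine, had -0.27 ± 0.19 (adjusted p = 0.2855) in sons and rose in daughters by 0.35 ± 0.12 (adjusted p = 0.0236), under the fold limit.

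In the CDP-diacylglycerol branch all 4 members tested were DEGs in both sexes, with 1 higher and 3 lower in sons and 3 higher and 1 lower in daughters. Cds2, the CDP-diacylglycerol synthase of the liver, had 89.0, 94.5, 81.0, 98.7 and 106 CPM in Natural sons and 43.6, 39.8, 43.4, 58.7 and 41.0 CPM in IVF sons. Natural daughters had 39.0, 59.5, 28.2, 46.4 and 40.1 CPM and IVF daughters 61.6 to 93.3 CPM (median 78.1). No library of 1 group entered the range of the other in either sex, and the log2 fold changes were -1.04 ± 0.16 (adjusted p = 0.000259) and 0.85 ± 0.17 (adjusted p = 0.000873). Cdipt, which makes phosphatidylinositol, had 48.3, 42.3, 44.1, 39.8 and 42.0 CPM in Natural and 23.8, 14.9, 9.64, 29.7 and 29.1 CPM in IVF sons. In daughters Cdipt was at 17.1, 27.2, 20.9, 21.1 and 16.2 CPM in Natural and 32.8 to 40.8 CPM (median 37.9) in IVF libraries. The log2 fold changes of Cdipt were -0.87 ± 0.21 (adjusted p = 0.00448) and 0.87 ± 0.14 (adjusted p = 0.000161), again without overlap.

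Crls1 and Pgs1 both act in the making of cardiolipin and moved in opposite directions. Crls1, the cardiolipin synthase, had 30.6, 30.0, 27.3, 30.4 and 30.3 CPM in Natural sons and 41.2, 51.6, 43.4, 47.7 and 48.1 CPM in IVF sons. In these CPM, scaled within the count table, it was the only member of the sons' livers with every IVF library above every Natural library. Its log2 fold change was 0.65 ± 0.14 (adjusted p = 0.00283). On the scale common to all libraries used for the levels per kb below, its ranges in sons overlapped (25.2 to 37.3 in Natural and 22.8 to 40.9 in IVF). In daughters it had 68.3, 66.6, 114, 103 and 84.0 CPM in Natural and 42.8 to 58.5 CPM (median 52.5) in IVF libraries, with a log2 fold change of -0.75 ± 0.15 (adjusted p = 0.000781). Pgs1, which makes the phosphatidylglycerol phosphate upstream of it, had -0.88 ± 0.33 (adjusted p = 0.0475) in sons and 0.94 ± 0.27 (adjusted p = 0.0091) in daughters.

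The supply of phosphatidic acid held genes of both directions, with 4 DEGs among 5 members tested in sons (2 higher and 2 lower) and 3 among 6 in daughters (2 higher and 1 lower). Agpat1, a lysophosphatidic acid acyltransferase, had 12.0, 6.01, 6.35, 9.59 and 11.9 CPM in Natural sons and 3.62, 2.49, 0, 3.61 and 2.28 CPM in IVF sons. Natural daughters had 0, 3.14, 0.565, 2.37 and 3.26 CPM and IVF daughters 4.84 to 13.5 CPM (median 8.76). Although low, the groups were apart in both sexes, with the largest log2 fold changes among the members tested, -1.60 ± 0.33 (adjusted p = 0.0016) in sons and 1.97 ± 0.45 (adjusted p = 0.00235) in daughters. Agpat1 and Ptdss2 were far higher in testis than in liver, and the 6 spermatid markers summed to 0 to 117 CPM (median 15.0) in Natural sons' livers and to 0 to 3.71 in those of IVF sons, against 10850.1 to 14888 in F2 testes. The 6 spermatogonia and spermatocyte markers summed to 4.78 to 12.0 CPM (median 7.21) in Natural and to 4.82 to 134 CPM (median 12.4) in IVF sons. The 6 Leydig markers summed to 1.56 to 3.87 against 2.28 to 14.8 CPM, and the 6 Sertoli markers to 19.0 to 31.9 against 4.82 to 16.8 CPM. Testis cell markers thus went in both directions between these livers. The part of testis transcripts in the difference between sons was not tested.

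Agpat5, another acyltransferase of this family, moved against Agpat1. It had 6.79, 7.43, 6.75, 6.38 and 7.07 CPM in Natural sons and 12.8, 19.9, 0, 10.6 and 11.6 CPM in IVF sons, of which all but the shallow IVF 3 lay above the Natural range. In daughters it had 16.5, 10.8, 18.6, 11.7 and 12.2 CPM in Natural and 6.07 to 7.87 CPM (median 7.26) in IVF libraries. Its log2 fold changes were 0.82 ± 0.29 (adjusted p = 0.0374) and -0.94 ± 0.18 (adjusted p = 0.000393). Of the lipins, the phosphatases that make diacylglycerol, Lpin3 followed Agpat1, with log2 fold changes of -1.38 ± 0.40 (adjusted p = 0.015) and 1.69 ± 0.36 (adjusted p = 0.0012). Lpin2 had 1.03 ± 0.36 (adjusted p = 0.0400) in sons and 0.34 ± 0.18 (adjusted p = 0.1286) in daughters. Lpin2 and Chka were the DEGs of the sons with the same sign in daughters, where neither passed the test.

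The lysophospholipid acyltransferases held the fewest DEGs. In sons 0 of 4 tested were DEGs, by edgeR or by DESeq2, and 0 had an unadjusted p under 0.05, and in daughters 1 of 5 was a DEG. Lpcat3, the main acyltransferase of this kind in liver, which adds polyunsaturated fatty acids to phosphatidylcholine, had 100.4, 96.2, 109, 112 and 87.2 CPM in Natural and 95.4, 47.3, 74.7, 105 and 90.6 CPM in IVF sons. These overlapped, and its log2 fold change was -0.27 ± 0.19 (adjusted p = 0.295). Natural daughters had 62.5, 89.7, 58.4, 80.0 and 83.5 CPM and IVF daughters 93.4 to 151 CPM (median 117), without overlap, and here Lpcat3 rose by 0.67 ± 0.16 (adjusted p = 0.0027). Mboat7, which adds arachidonic acid to phosphatidylinositol, had 35.0, 32.4, 39.4, 41.0 and 29.4 CPM in Natural and 34.6, 13.7, 19.3, 25.3 and 30.0 CPM in IVF sons. Natural daughters had 30.5, 33.1, 29.4, 24.6 and 32.4 CPM and IVF daughters 27.6 to 45.5 CPM (median 39.4). The groups overlapped for Mboat7 in both sexes, and its log2 fold changes, -0.44 ± 0.21 and 0.34 ± 0.15, did not pass (adjusted p = 0.114 and 0.0668). In counts thinned to the smallest library Mboat7 was a DEG in sons, at -0.82 ± 0.30 (adjusted p = 0.0415). Lclat1 had 0.44 ± 0.21 in sons and fell by 0.56 on the log2 scale in daughters (adjusted p = 0.0064), under the fold limit. Lpcat1, Lpcat2, Lpcat4, Mboat1 and Mboat2 were at low levels in liver, and none of those tested passed.

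Among the phospholipases 1 of 5 members was a DEG in sons, lower, and 4 of 5 were in daughters, 3 higher and 1 lower. Pla2g15, the lysosomal phospholipase, had 18.1, 11.6, 12.3, 13.1 and 15.8 CPM in Natural and 6.85, 6.22, 4.82, 10.0 and 7.59 CPM in IVF sons. Natural daughters had 6.71, 9.17, 3.39, 3.47 and 5.81 CPM and IVF daughters 13.0 to 20.5 CPM (median 16.2). The groups were apart in both sexes, with log2 fold changes of -0.88 ± 0.22 (adjusted p = 0.00656) and 1.49 ± 0.24 (adjusted p = 0.00014). Pld2, which cleaves phosphatidylcholine to phosphatidic acid and choline, had 3.96, 4.91, 2.26, 4.73 and 4.13 CPM in Natural and 7.34 to 9.49 CPM (median 8.12) in IVF daughters. The log2 fold change of Pld2 was 1.01 ± 0.20 (adjusted p = 0.000694) in daughters. In sons Pld2 had 7.61, 8.22, 6.92, 8.50 and 9.42 CPM in Natural and 4.10, 2.49, 14.5, 6.71 and 5.06 CPM in IVF libraries. The IVF sons were lower except IVF 3, and the change of -0.60 ± 0.30 did not pass (adjusted p = 0.1255). Its relative Pld1 went the other way in daughters, with -0.90 ± 0.22 (adjusted p = 0.0026), and Pla2g6, a calcium-independent phospholipase, had 0.74 ± 0.19 (adjusted p = 0.004) there.

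The 32 other genes of phospholipid metabolism, among them Gpam, Lpin1 and Tamm41, were counted in the same fits. In sons 9 of 30 tested were DEGs (2 higher and 7 lower), a share of 30.0% against 31.1% of all genes, with a median log2 fold change of -0.17. In daughters 10 of 29 were (6 higher and 4 lower), a share of 34.5% against 39.4% of all genes, with a median of 0.13. Lypla2, a lysophospholipase, fell by 1.65 on the log2 scale in sons (SE 0.24, adjusted p = 0.000188) and rose by 1.85 ± 0.19 in daughters (adjusted p = 1.33e-05). Agpat2, the acyltransferase of lipid storage, fell by 0.93 (SE 0.20, adjusted p = 0.00263) in sons and rose by 0.99 ± 0.17 (adjusted p = 0.000172) in daughters. Phospho1, a phosphatase of phosphocholine and phosphoethanolamine, fell by 2.22 (SE 0.52, adjusted p = 0.00418) in sons, and Plpp2, a lipid phosphate phosphatase, rose by 1.33 ± 0.23 (adjusted p = 0.000197) in daughters. Of the 9 genes of methyl donor supply and choline catabolism, which feed and compete with the PEMT reaction, 4 were DEGs in sons, all lower, with a median of -0.26, and 5 were DEGs in daughters, all higher, with a median of 0.62 (shares of 44.4% and 55.6%, against the same 31.1% and 39.4%).

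Across members the log2 fold change followed the GC content of the transcript. The Spearman correlation over genes, which are not replicates, was -0.73 over the 29 members in sons and 0.78 over the 32 in daughters, against -0.61 and 0.72 over all genes with a GC value. In each library the levels of all genes, centred over the libraries, also followed GC. That correlation was 0.44 to 0.52 in Natural and -0.49 to -0.10 in IVF sons, and -0.64 to -0.33 in Natural and 0.33 to 0.66 in IVF daughters. The groups were therefore apart in GC trend in both sexes, with opposite order. Whether the trend arose in the animals or in the handling of the libraries cannot be told apart in this design, since every library of a group shared its sign.

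The same tests were repeated with each library's smooth trend of level with GC removed. In sons 3 members were then DEGs, Ptdss2 at -1.32 ± 0.30 (adjusted p = 0.00829), Cds2 at -0.80 ± 0.17 (adjusted p = 0.00608) and Pisd at -0.67 ± 0.19 (adjusted p = 0.023), against 16.4% of all genes. In daughters 6 members were, Lpin3 at 1.02, Pla2g15 at 0.91, Etnk2 at 0.80, Ptdss2 at 0.77, Cds2 at 0.65 and Pld1 at -0.65, against 17.8% of all genes. Ptdss2 and Cds2 were the only members that remained DEGs in both livers, still in opposite directions. Pcyt2 had a log2 fold change of -0.00 ± 0.20 in sons and 0.30 ± 0.11 (adjusted p = 0.0633) in daughters in this fit, and Chpt1 had 0.06 ± 0.19 and -0.25 ± 0.14. Pemt had -0.41 ± 0.23 (adjusted p = 0.245) in sons and 0.53 ± 0.15 (adjusted p = 0.0188) in daughters, where it passed under the fold limit. The members' medians became -0.14 and 0.26. Removing the trend also removes any true change that goes with GC content.

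**Figure D3:**
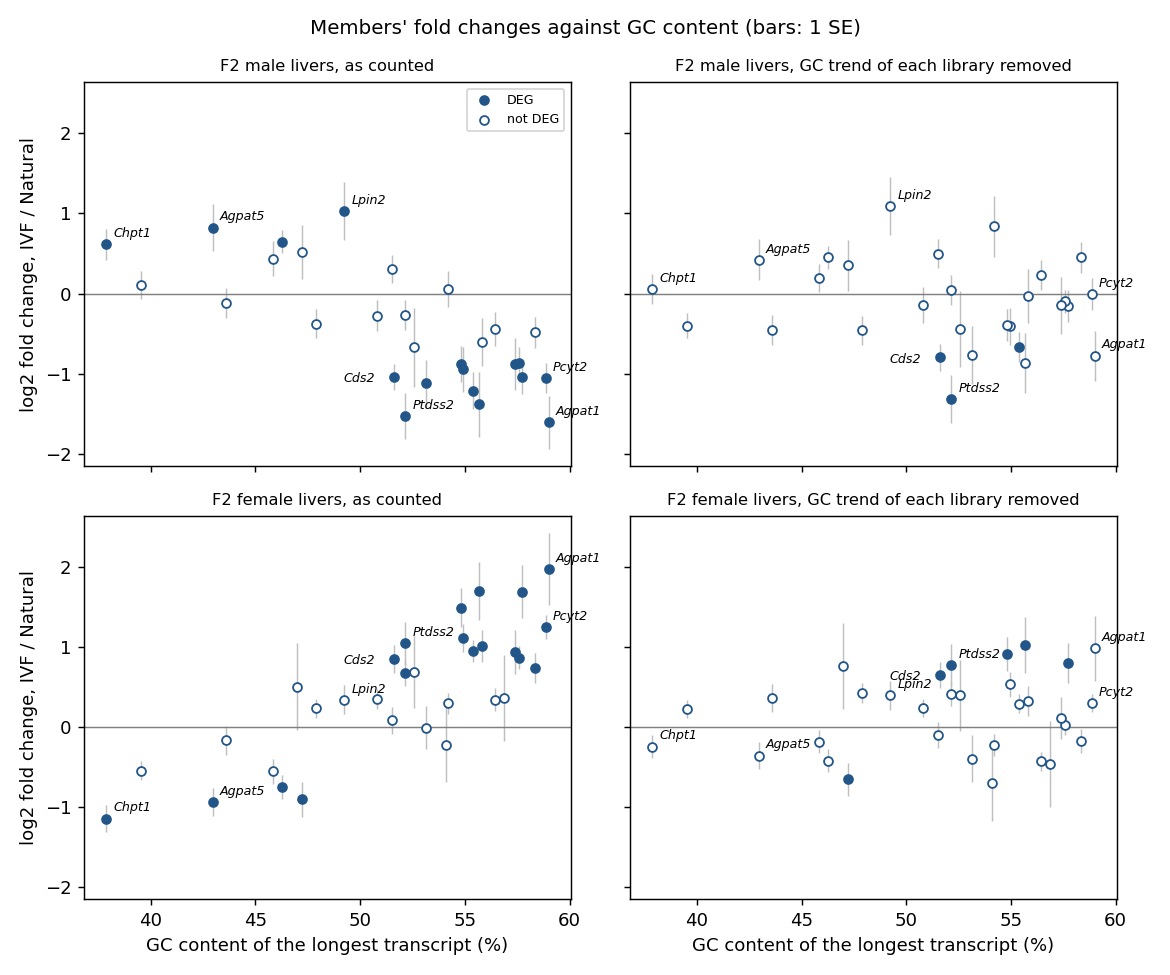
Log2 fold change (IVF against Natural, y axis, bars 1 SE) of each phospholipid gene against the GC content of its longest transcript (x axis, percent), in sons (top) and daughters (bottom), as counted (left) and with the GC trend of each library removed (right). Filled points are DEGs, 16 and 18 at the left and 3 and 6 at the right.

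Leaving out the shallow libraries left most calls in place. Without IVF 2 and IVF 3, 15 of 32 members tested were DEGs in sons (46.9%, against 26.5% of all genes), 14 of them among the 16 and Pld2 in addition. With the GC trend removed as well 2 were (Cds2 and Ptdss2), 6.25% against 15.4% of all genes. Without Natural 1 and Natural 3, 18 of 33 were in daughters (54.5%, against 32.8% of all genes), 17 of them among the 18 and Lclat1 in addition. With the trend removed as well 3 were (Lpin3, Pla2g15 and Ptdss2), 9.09% against 11.3%. The calls of Agpat5, Lpin2, Pgs1 and Chpt1 in sons were the least stable. Agpat5 no longer passed the test when any 1 library other than IVF 3 or IVF 4 was left out, nor Lpin2 with any other than Natural 4, IVF 1 or IVF 5 left out, nor Pgs1 with any other than IVF 2 or IVF 3 left out. Over all fits with 1 library left out, the log2 fold change of Agpat5 was 0.65 to 0.93, that of Lpin2 0.77 to 1.26 and that of Pgs1 -1.07 to -0.73. Chpt1 no longer passed without Natural 3 (0.57), lay under the fold limit without IVF 2 (0.49) or IVF 3 (0.53), and came to 0.35 without both. In daughters each of the 18 DEGs kept its call whichever 1 library was left out, and Mboat7 passed without Natural 2 (0.40) or IVF 2 (0.42), under the fold limit.

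The difference between the sexes was tested as an interaction in 1 fit of all 21 livers. Of 33 members tested, 25 differed in their response between daughters and sons (75.8%), 19 with the higher value in daughters and 6 with the lower, against 52.9% of all genes. Pcyt2 differed by 2.31 ± 0.25 on the log2 scale (adjusted p = 2.88e-08), Pisd by 2.15 ± 0.27 (adjusted p = 2.99e-07), Cds2 by 1.89 ± 0.24 (adjusted p = 3.13e-07) and Pla2g15 by 2.37 ± 0.33 (adjusted p = 1.32e-06). With the GC trend removed 17 members differed, 11 with the higher value in daughters and 6 with the lower, against 34.2% of all genes. Ptdss2 then differed by 2.07 ± 0.42 (adjusted p = 0.000376), Cds2 by 1.41 ± 0.25 (adjusted p = 0.000116) and Pisd by 0.92 ± 0.21 (adjusted p = 0.00117), and Pcyt2 by 0.20 ± 0.25 (adjusted p = 0.574). Sex and count table coincide in this comparison, and the effect of the one cannot be told apart from that of the other.

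In the gonads no member was a DEG in any of the 5 comparisons, by edgeR or by DESeq2. At E18.5 in F1 testes 35 members were tested, and 9 had an unadjusted p under 0.05, against 2722 of all 15406 genes tested. Of the members 1 passed the adjusted test under the fold limit, where 0.221% of all genes were DEGs and 1.17% passed. This was Etnk1, with 117, 194, 164 and 132 CPM in Natural and 208 to 242 CPM (median 212) in IVF testes, without overlap, and a log2 fold change of 0.51 ± 0.11 (adjusted p = 0.0459). It was no longer past the test with the GC trend removed, with the replicate number as a block or in counts thinned to the smallest library. DESeq2 passed 3 members under the fold limit, Etnk1 (0.51, adjusted p = 0.00265), Lpin3 (-0.46, adjusted p = 0.0274) and Ptdss2 (-0.28, adjusted p = 0.0318), where it passed 6.82% of the genes to which it gave an adjusted p, the base of its shares below.

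In F1 testes at 12 weeks 6 of 34 members had an unadjusted p under 0.05, against 2597 of all 20113 genes tested. The members' smallest adjusted p was 0.135, where 0.199% of all genes were DEGs and 0.746% passed. It belonged to Pcyt2, with 63.1, 71.3, 54.3, 54.5 and 61.0 CPM in Natural and 69.0, 80.5, 70.3, 80.2 and 72.8 CPM in IVF testes and a log2 fold change of 0.29 ± 0.08. With the GC trend removed the smallest adjusted p of a member was 0.206. By DESeq2 Pcyt2 passed, under the fold limit (adjusted p = 0.0419), and 2.92% of the genes did. At 39 weeks 5 of 34 had an unadjusted p under 0.05, against 2101 of all 20083 genes tested. Of all genes 0.00996% were DEGs, and no more than these 0.00996% passed. Chpt1 had the smallest adjusted p, 0.223, with 53.0, 41.1, 57.4 and 49.8 CPM in Natural and 60.1 to 73.7 CPM (median 69.8) in IVF testes and a change of 0.45 ± 0.12. The overlap of Chpt1 with Sycp3 given above holds in testis too. The 6 spermatogonia and spermatocyte markers summed to 219 to 264 CPM in Natural and to 323 to 358 CPM in IVF testes at 39 weeks. The part of either in the change of Chpt1 was not tested. With the GC trend removed the smallest adjusted p of a member was 0.727. DESeq2 passed 0 members here and 0.921% of the genes. In the testes of F2 sons 0.914% of all genes were DEGs and 1.61% passed. There 4 of 34 members had an unadjusted p under 0.05, against 2985 of all 21454 genes tested. Pla2g6 came nearest, with 283 to 325 CPM in the 5 Natural (310.1, 325, 313, 310.0 and 283) and 337 to 353 CPM (median 348) in the 7 IVF libraries, a change of 0.16 ± 0.04 (adjusted p = 0.0636). By DESeq2 Pla2g6 passed, under the fold limit (adjusted p = 0.00472), as did 2.79% of the genes. The members' median log2 fold changes in these testes were 0.02 at E18.5, 0.06 at 12 weeks, -0.09 at 39 weeks and -0.07 in the F2.

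In the ovaries of F2 daughters all 36 members were tested and 7 had an unadjusted p under 0.05, against 1757 of all 16502 genes tested. Of all genes 0% were DEGs by edgeR, and DESeq2 called 91 DEGs. Pcyt2 had the smallest adjusted p, 0.266, with 71.9, 95.0, 82.3 and 93.3 CPM in Natural and 109, 119, 125, 108 and 114 CPM in IVF ovaries, a log2 fold change of 0.43 ± 0.09. Every IVF ovary lay above every Natural ovary for Pcyt2, although the change did not pass by edgeR. By DESeq2 it passed under the fold limit (adjusted p = 0.0116), as did 0.976% of the genes. Lpcat2 had the largest change, 1.63 ± 0.55 (adjusted p = 0.42), with 31.4, 40.1, 53.9 and 51.2 CPM in Natural and 306, 167, 73.4, 91.7 and 41.1 CPM in IVF ovaries, and was singled out after its values were seen. The members' median was 0.05.

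**Figure D4:**
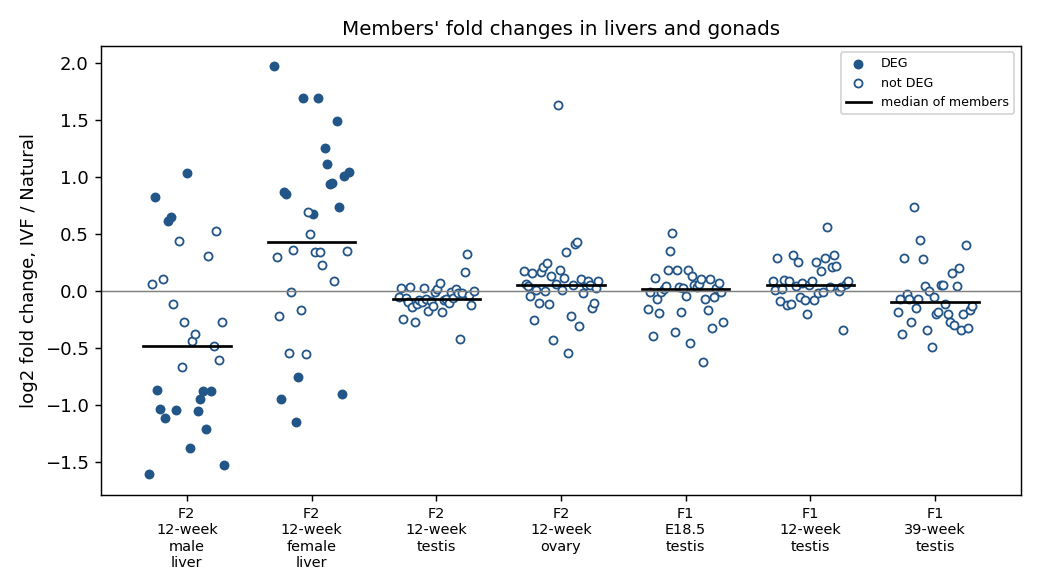
Log2 fold change (IVF against Natural, y axis) of each phospholipid gene in the 7 tissues and ages (x axis), with filled points for DEGs and a line at the median of the members. DEGs were present in the livers (16 and 18) and there were none in the gonads, where the medians lay between -0.09 and 0.06.

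The levels themselves differed between tissues, read in Natural animals as CPM per kb of the longest transcript on a scale common to all libraries. In male liver Pcyt2 led with 365 ± 52.8 (SD, n = 5), followed by Pemt with 199 ± 23.5 and Etnk2 with 116 ± 31.5. In female liver the order began with Pcyt2 at 121 ± 36.4 and Pemt at 101 ± 38.4, which lay within their spread of each other, and Crls1 came next at 72.3 ± 16.8. In F2 testis Agpat1 led with 206 ± 5.14, followed by Pla2g6 with 98.3 ± 5.01 and Ptdss2 with 94.1 ± 2.08, and Pemt was at 5.94 ± 0.563. The ovary (n = 4) had no member as far ahead. Agpat1 was at 36.7 ± 1.42, Chka at 35.9 ± 5.59, Lpcat3 at 34.2 ± 7.31, Cdipt at 33.9 ± 1.85 and Pcyt2 at 33.2 ± 2.56. Pemt was at 1.63 ± 0.58 there. Fetal testis had more Etnk2 (37.2 ± 7.29) than adult F1 testis (12.7 ± 2.11 at 12 weeks), and less Agpat1 (23.5 ± 2.34 against 183 ± 8.7), and ages were not compared by a test. In IVF livers the level per kb of Pemt was 75.7 ± 47.2 in sons and 274 ± 60.5 in daughters, and that of Pcyt2 was 131 ± 53.7 and 360 ± 90.1. Groups differ on this common scale by other amounts than in the fits above, which were scaled within each count table. Groups that were apart there can overlap here, as those of Crls1 in sons did.

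**Figure D5:**
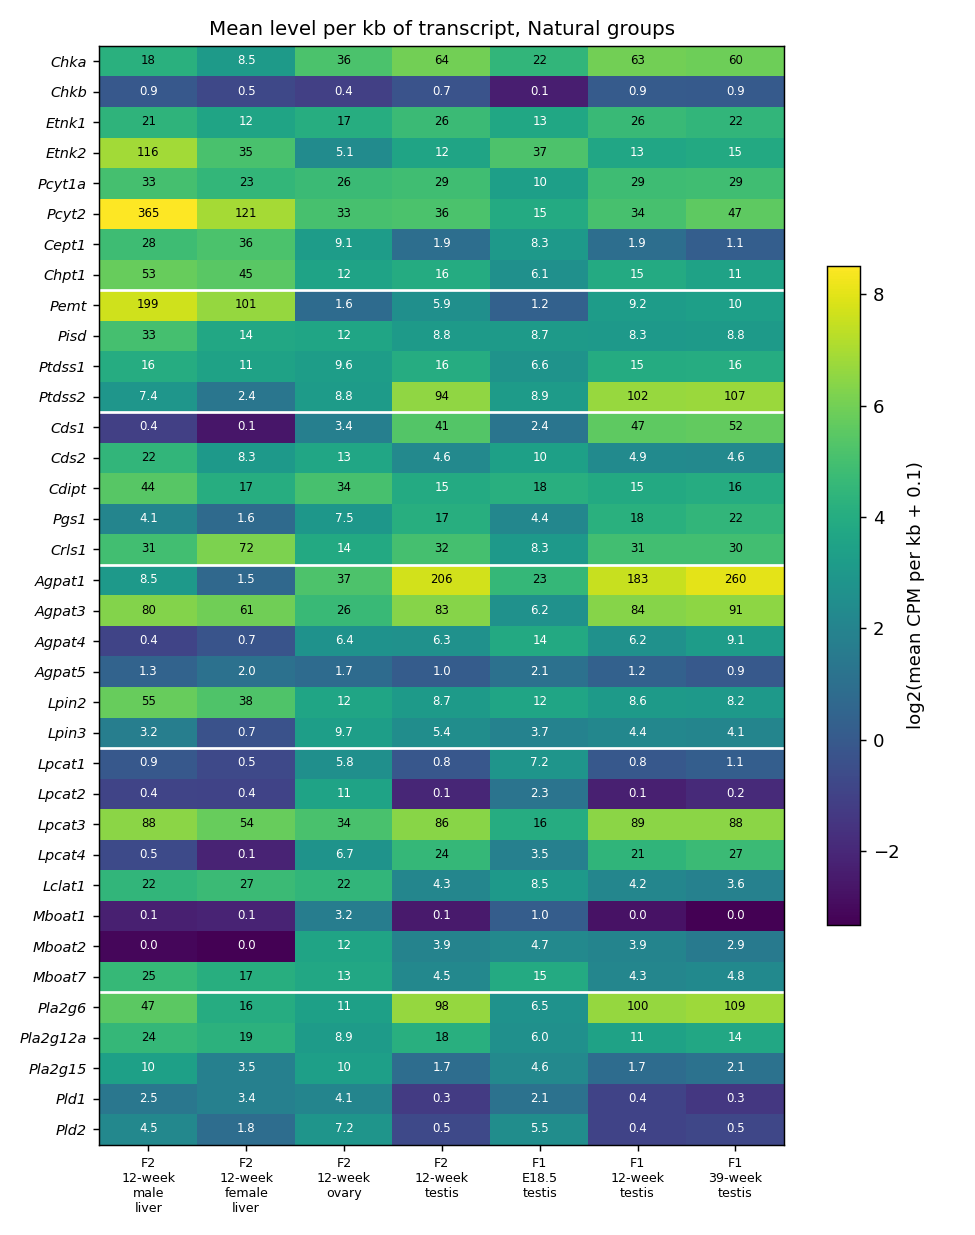
Mean level per kb of transcript (numbers and colour, CPM per kb, colour on a log2 scale with 0.1 added) of each phospholipid gene (rows, white lines between roles) in the Natural group of each tissue and age (columns). Pcyt2 and Pemt stand out in liver, and Agpat1, Pla2g6 and Ptdss2 in adult testis.

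Between testis and liver of Natural F2 males 25 of 35 members tested were DEGs, 10 higher and 15 lower in testis, against 86.7% of all genes. The largest falls were those of Pemt (-5.19), Cept1 (-4.07) and Pcyt2 (-3.48, log2 fold changes), and the largest rises those of Mboat2 (7.77, with 4 and 2 counts in 2 Natural male livers and 0 in the other 3), Cds1 (6.90) and Lpcat4 (5.34). The members' median was -0.42 while that of all genes was 1.25. With the size factors of DESeq2 the median of all genes was 1.61 and 26 members were DEGs, 11 higher and 15 lower, and with the GC trend removed 33 were, 8 higher and 25 lower. The shares of all genes called under these settings are not given here, so these counts have no background beside them. Cds1, the other CDP-diacylglycerol synthase, was at 40.6 ± 2.23 CPM per kb in testis and 0.376 ± 0.259 in male liver, where Cds2 was at 22.4 ± 4.12.

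Between ovary and liver of Natural F2 females 30 of 36 members were DEGs, 15 higher and 15 lower in ovary, against 72.1% of all genes. Pemt (-6.37), Etnk2 (-3.16) and Crls1 (-2.77) fell most, and Cds1 (5.03) and Lpcat4 (4.85) rose most beside Mboat2, an acyltransferase that had no count in any Natural female liver and 12.0 ± 1.18 CPM per kb in ovary. The members' median was -0.18 and that of all genes 0.40. With the size factors of DESeq2 the latter was 0.58 and 26 members were DEGs, 15 higher and 11 lower, and with the GC trend removed 29 were, 11 higher and 18 lower. Here too the shares of all genes under these settings are not given. Tissue and count table cannot be told apart in these comparisons.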

How the data were processed

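RNA-Seq of 72 mouse libraries was used. The authors made stranded mRNA libraries and, per the labels, trimmed the reads with Trimmomatic 0.32, mapped them to mm10 with STAR 2.3.0e and counted them on RefSeq genes with featureCounts 1.5.0, and the deposited values are raw counts. Between 60.0% and 94.3% of the low counts of a library were even, so each mate of a pair was probably counted, and a count is less than an independent fragment. Each table was tested on its own with edgeR 4.0.16 in R 4.3.3 (filterByExpr by group, TMM, robust quasi-likelihood, two-sided, Benjamini-Hochberg over all genes tested), and members were read from that fit. DEGs were genes with a fold change above 1.5 whose adjusted p was under 0.05. GC content and length were those of the longest GENCODE transcript (GRCm38), found for all 36 members, and the GC trend was a lowess curve of span 0.3 in each library. Alternatives were DESeq2 1.42.0, its size factors in edgeR, no filter, the replicate block, thinned counts and left-out libraries. The fits of both livers, of the interaction and of testis against male liver were tested on simulated data, with and without the GC step. DESeq2 was tested so in the livers. The other fits were not tested on simulated data, and the simulated counts held no GC trend. The closest pairs, F2 testis IVF 3 and 4, 39-week testis Natural 1 and 2 and F2 testis Natural 1 and 2, differed by 1.42, 1.53 and 1.85 times the counting noise of independent counts, little enough, with mates counted, that they could not be told apart from repeats of 1 library. They were kept as the separate samples they are labelled as. Between IVF and Natural testes no member was a DEG with any of them left out, as with all libraries. The next pair, E18.5 testis Natural 3 and 4, differed by 2.19 times that noise. They are 2 of the 4 Natural libraries of the comparison in which Etnk1 passed. Whether they are repeats of 1 library was not tested. In testis against male liver 24 to 26 members were DEGs with 1 library left out. Over all genes 17834 (of 20643 tested) to 18680 (of 21507) were. The members, lists and rule for genes given by library (6 chosen genes, and those of smallest adjusted p whose groups do not overlap) were chosen with earlier results of these data known.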

Additional observations from a re-analysis of the deposited data

Results flagged for a closer look

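In 4 of 64 groups of 4 to 10 libraries examined for a member described by library, 1 library stood apart from the others by Dixon's criterion, and chance flags about 1 in 20 groups. These were Cds2 at 58.7 CPM in IVF 4 and Chka at 24.1 CPM in IVF 3 of the sons' livers, Crls1 at 27.3 CPM in Natural 3 of the sons' livers, and Etnk1 at 241.5 CPM in IVF 6 of the E18.5 testes. IVF 3 is the shallowest library.

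The response to IVF differed between daughters' and sons' livers by the interaction test in 25 members, given here as daughters minus sons on the log2 scale. In the choline and ethanolamine branch the difference was -1.74 for Chpt1, -0.64 for Cept1, 0.61 for Pcyt1a, 1.11 for Chka, 2.31 for Pcyt2 and 2.74 for Etnk2. In the methylation and serine branch it was 0.63 for Ptdss1, 2.06 for Pemt, 2.15 for Pisd and 2.58 for Ptdss2. In the CDP-diacylglycerol branch it was -1.39 for Crls1, 1.74 for Cdipt, 1.82 for Pgs1 and 1.89 for Cds2. In the supply of phosphatidic acid it was -1.75 for Agpat5, 3.08 for Lpin3 and 3.57 for Agpat1. Among the acyltransferases it was -0.98 for Lclat1, 0.79 for Mboat7, 0.95 for Lpcat3 and 2.22 for Lpcat4, and among the phospholipases -1.41 for Pld1, 1.22 for Pla2g6, 1.61 for Pld2 and 2.37 for Pla2g15. Lpcat4 was too low to be tested in either liver alone. With the GC trend removed Cept1, Mboat7 and Pla2g6 had the opposite sign, at 0.60, -0.70 and -0.69. Agpat3 (-1.18) and Etnk1 (0.79) were called in that fit and not as counted. Chpt1, Cept1's relative in this branch, and Lclat1, Ptdss1, Lpcat3, Chka, Pld2, Cdipt, Pgs1, Lpcat4 (0.16) and Pcyt2 were no longer called in it.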

How the results depend on the processing

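The counts of DEGs among the members depended most on the GC trend. In sons 16 became 3 with the trend removed, and 2 with the trend removed and the replicate block (against 12.2% of all genes). In counts thinned to the smallest library 8 of 18 tested were DEGs (7 of the 16, and Mboat7), against 32.8% of all genes. Without IVF 2 and IVF 3 and with the trend removed 2 were, an alternative added after seeing the data. In daughters 18 became 6, 3 with the block as well (against 13.7% of all genes), and 3 without Natural 1 and Natural 3 and with the trend removed (also added). Leaving out 1 library at a time gave 12 to 15 in sons, 18 to 19 in daughters, 22 to 26 for the interaction, 24 to 26 for testis against liver, 28 to 32 for ovary against liver, 0 to 1 at E18.5 and 0 in the other gonads. At E18.5 the 1 came without Natural 2, and also without the fold limit. Over all genes, 1 library left out gave 3173 (of 11915 tested) to 3909 (of 12239) DEGs in sons. It gave 4443 (of 12668) to 5282 (of 12775) in daughters and 6635 (of 13226) to 7051 (of 13265) for the interaction. For testis against liver it gave 17834 (of 20643) to 18680 (of 21507), and for ovary against liver 11243 (of 15834) to 11696 (of 16192). At E18.5 it gave 3 (of 15687) to 115 (of 15711). Signs reversed in sons for Lpcat3 (0.0419 with the trend removed, 0.0325 with the block as well, 0.0932 without IVF 2 and IVF 3 and with the trend removed), Mboat7 (0.23, 0.25 and 0.28 under the same settings) and Chpt1 (-0.10 without IVF 2 and 3 and with the trend removed). In daughters they reversed for Mboat7 (-0.43 with the trend removed, -0.46 with the block as well, -0.39 without Natural 1 and 3 and with the trend removed), Pla2g6 (-0.18, -0.18 and -0.25 likewise) and Chka (0.0440 without the filter, 0.0227 thinned, 0.19 without Natural 1 and 3, and -0.23 to 0.13 with 1 library left out). The cause was not tested. DESeq2 called 15 and 18 members in sons and daughters, against 18.1% and 24.5% of all genes. Without the filter 13 and 18 were called, against 16.5% and 22.7%. The replicate numbers did not pair the animals (correlations of same-numbered libraries -0.03 to 0.03 in male and -0.22 to 0.17 in female livers). With them as a block 13 and 18 members were called, against 27.1% and 34.2% of all genes. In the shallow library IVF 3 of the sons, Agpat1 and Agpat5 had no count, so its depth limits what it shows of low members.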
